A study of Rattus norvegicus with 3 samples.

Results

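The mRNAs described here encode the matrix metalloproteases (Mmp), the tissue inhibitors of metalloproteases (Timp) and the related Adamts and Adam families. They were chosen by gene symbol among the protein-coding rows of the gene table, with earlier results of these data known. The choice gave 72 of 29684 rows: 23 Mmp, 4 Timp, 19 Adamts and 26 Adam genes, or 0.317% of the 22745 nuclear protein-coding genes. The RNA was that of extracellular vesicles, small particles shed by cells, in the medium of cultured rat mesenchymal stem cells derived from fat of the inguinal region. The rats were wild type, with no age given. There was 1 group, ADSC-EVs, with 3 libraries from 3 batches of vesicles and no treated, untreated or parent-cell samples, so each comparison below is between genes within the same libraries. Whether each batch had its own animal or culture is not stated, so the spread among libraries may be technical. How many vesicles carried an mRNA and how much each carried cannot be told apart in such bulk RNA.

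Matrix metalloproteases are zinc enzymes that cut collagens and other matrix proteins. Most are secreted as inactive precursors, and the membrane-type members stay on the cell surface. Timp proteins block their active site, and Timp3 also inhibits several Adam and Adamts enzymes. Adamts proteases are secreted and cut proteoglycans and procollagens. Adam proteins are membrane proteins, and some of them are proteases that release growth factors, cytokines and receptors from the surface. Many rodent Adam genes are expressed in testis or epididymis, where several act in sperm and egg interaction. Stromal cells such as fibroblasts are a known source of Mmp2, Mmp14 and the Timp proteins.

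Replicates 1, 2 and 3 had totals of 5219920, 6786182 and 6618461 gene counts. The 72 genes held 11745, 12324 and 13472 of these counts, with a median member at 123.5, 131 and 142 counts and no member under 19, so counting error was moderate for most of them. Levels are the authors' FPKM (fragments scaled to gene model length and library total), given as mean ± SD over the 3 libraries. Of the markers of mesenchymal stromal cells, 6 of 10 were called above the median nuclear protein-coding gene by limma, beside 21.3% of nuclear protein-coding genes, led by Vim at 172 ± 63.0 FPKM, while Thy1, Cd44, Nt5e and Eng did not. Among haematopoietic markers this held for 0 of 5, and among macrophage markers for 1 of 3, Cd68 at 9.06 ± 1.06 FPKM.

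No metalloprotease or inhibitor mRNA was called over 4-fold above the background in FPKM + 1 in these libraries, and few genes were. Olfactory and vomeronasal receptor genes, which are expressed in the nose, served as the background. Their median was 2.65 ± 0.302 FPKM, against 4.83 ± 0.380 for nuclear protein-coding genes and 4.56 ± 0.367 for the 72 members. Limma's treat test asked which genes exceeded that of the receptor genes by more than 2 in log2(FPKM + 1), that is 4-fold in FPKM + 1, with Benjamini-Hochberg adjustment over all genes. It called 0 of the 72 members, where 1.79% of all genes and 1.57% of nuclear protein-coding genes were called. At an unadjusted p under 0.05, the count was also 0, beside 1143 of 29684 genes and 811 of 22745 nuclear protein-coding genes. For 72 genes, the 0 called after adjustment is near the adjusted shares over all and coding genes. Mmp2 had the largest difference, 2.01 (SE 0.16), which was over the threshold but not called. The quasi-likelihood fit of edgeR on the counts called 0 members, beside 1188 over all genes, with 1 member, Mmp2, at an unadjusted p under 0.05. Its threshold was 4-fold in FPKM without the added 1, a lower level than limma's. On that scale the difference of Mmp2 was 2.40. Over all genes the limma count of 531 fell to 233 without replicate 2 and to 0 without replicate 3, and was 768 without replicate 1.

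At lower thresholds, which were chosen after the data had been seen, some members were called. More than 1 above the receptor median, limma's treat test called 2 of 72 members (2.78%), Mmp2 and Mmp14, where 8.86% of all genes and 8.91% of nuclear protein-coding genes were called. Without replicate 2 or without replicate 3 it called 0, and without replicate 1 it called 2. The edgeR fit called 12, but its threshold was a fold in FPKM without the added 1, a lower level. Its share over all genes at this threshold is not given here. For any difference above the receptor median the count was 45 of 72 (62.5%), against 52.9% of all genes and 58.6% of nuclear protein-coding genes. In limma with all libraries, the share over 1 was below those of all and coding genes, and the last share was near them. By family, any difference above the receptor median was called for 4 of 4 Timp, 15 of 23 Mmp, 15 of 19 Adamts and 11 of 26 Adam genes.

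**Figure D1:**
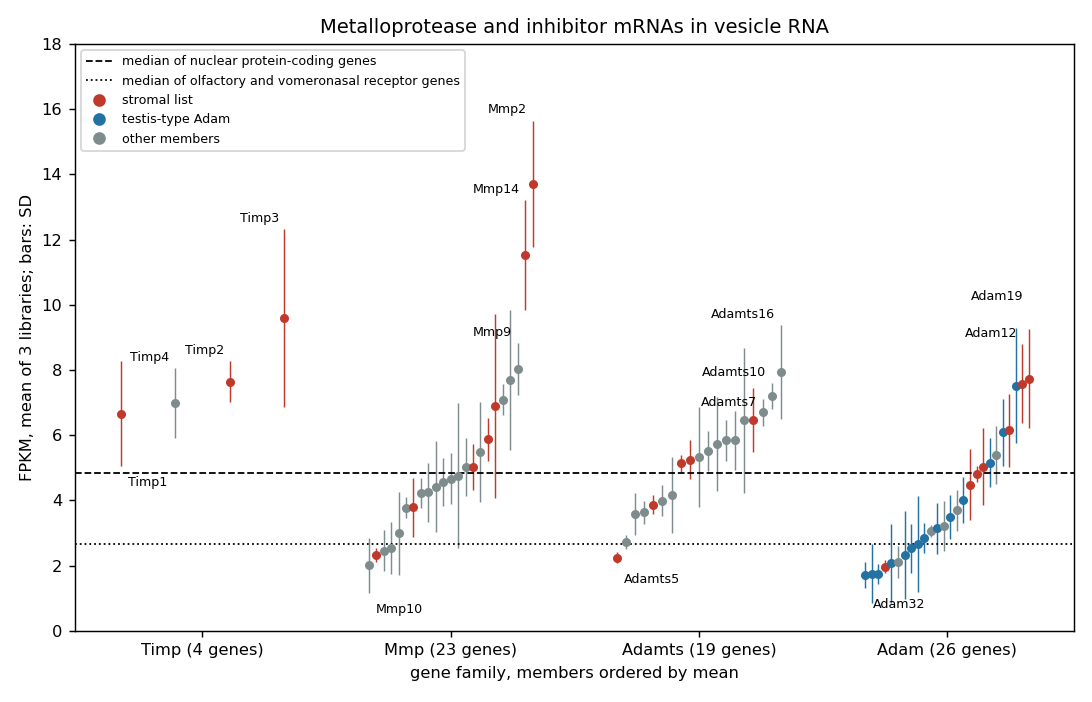
FPKM of each of the 72 genes by family (points, mean of 3 libraries; bars, SD), with stromal members in red, testis-type Adam genes in blue and other members in grey. Mmp2 and Mmp14 are the highest points at 13.7 and 11.5 FPKM, and most members lie between or near the dashed median of nuclear protein-coding genes (4.83) and the dotted receptor median (2.65).

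To order the members, each was also compared with the median nuclear protein-coding gene of the same library on the log2(FPKM + 1) scale (limma, adjusted over all genes, added after the data had been seen). Called above that median were 11 of 72 members, where 19.9% of all genes and 21.3% of nuclear protein-coding genes were called. Called below it were 16 of 72, where 22.2% of all genes and 19.6% of nuclear protein-coding genes were called. The calls need all 3 libraries: without replicates 1, 2 and 3 in turn the count above was 3, 2 and 3 and the count below 4, 2 and 3. Each of the 27 called members lay on the same side of the coding median in all 3 libraries, so its direction could not change in these fits. Mmp2, Mmp14 and Adam5 were called in all of these fits. With all libraries, the calls of Adam30, Mmp24, Adamts10, Adam22 and Adam34l were each lost under at least 1 alternative other than CPM. Adam30, Mmp24 and Adamts10 were lost with a single prior variance, and Adam30 and Mmp24 also when genes under a mean FPKM of 1 were left out. With CPM, which adjust counts for depth but not for gene length, 34 members were called above.

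**Figure D2:**
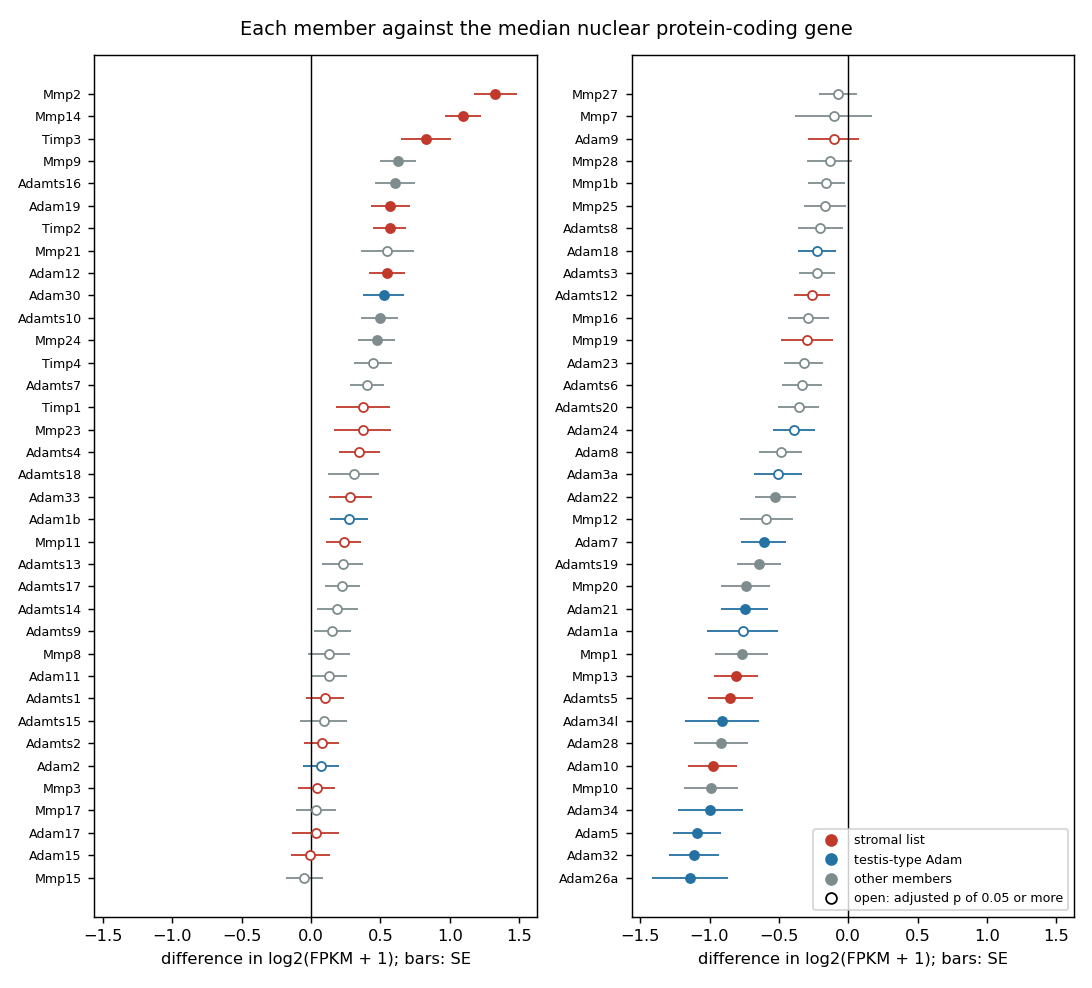
Difference of each member from the median nuclear protein-coding gene in log2(FPKM + 1) (points; bars, SE), ordered from highest to lowest across both panels, with filled points at an adjusted p under 0.05 by limma. The values run from 1.33 for Mmp2 to -1.14 for Adam26a, and 7 of the 16 genes called below the median are testis-type Adam genes.

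The inhibitors had the highest family median in FPKM, at 7.54 ± 0.665. In log2(CPM + 1), without division by length, the Adamts median was higher, at 1.11 above the coding median against 0.67 for the Timp genes. Timp3, the inhibitor that binds to matrix (ENSRNOG00000004303, mRatBN7.2 chromosome 7, 17521919 to 17571839), had 12.1, 9.93 and 6.69 FPKM in replicates 1, 2 and 3. Timp2, which also takes part in the activation of pro-Mmp2 at the cell surface (chromosome 10, 103531505 to 103590611), had 8.35, 7.14 and 7.44 FPKM. The Timp3 libraries therefore spread more widely than those of Timp2, and the ranges of both genes overlapped. Timp4 had 7.90, 7.25 and 5.81 FPKM. Timp1, a secreted inhibitor of most Mmp enzymes, had 4.93, 8.12 and 6.94 FPKM from 35, 68 and 59 counts, the fewest counts of the 4 genes. By mean level the order was Timp3, Timp2, Timp4 and Timp1, and all neighbours in it overlapped between libraries.

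Timp3 lay 0.83 (SE 0.18) above the coding median in log2(FPKM + 1), adjusted p 0.0224 by limma, and Timp2 lay 0.57 (SE 0.12) above it, adjusted p 0.0207. For Timp4 the difference was 0.45 (adjusted p 0.0561, limma) and for Timp1 0.37 (adjusted p 0.175), and neither was called. Within libraries, Timp1 minus Timp2 was -0.19 ± 0.42 in log2(FPKM + 1), with a positive value in 1 of 3 libraries (exact two-sided sign-flip permutation test, p = 0.75, adjusted over 6 pairs 0.75). Timp2 minus Timp3 was -0.26 ± 0.34, positive in 1 of 3 (exact permutation test, p = 0.5, adjusted 0.6). The mean of the former turned to 0.0372 without replicate 1, and that of the latter to 2.56 with CPM (counts per library total, not per length). The smallest p that 3 libraries allow is 0.25, so this test could not call any pair.

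The gene positions bear on how firmly these 4 levels can be read. Timp1, Timp3 and Timp4 each overlap a synapsin gene, Syn1, Syn3 and Syn2, on the opposite strand, and Timp2 overlaps Cant1 on the same strand. Synapsins are proteins of neuronal synaptic vesicles. Syn1 had 8.15 ± 0.552 FPKM, Syn2 8.55 ± 0.756 and Syn3 5.45 ± 0.695, so Syn1 and Syn2 had higher means than the inhibitor genes within them. Syn3 was lower than Timp3 in every library. The kit marks strand, but the strand setting of the counting is not given in the sources used here, so reads of overlapping genes may not be told apart. Of the 72 members, 17 overlap another gene of the table, 13 of them on the opposite strand.

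Among the Mmp genes, Mmp2 and Mmp14 were the highest, and they were also the highest of all 72 members. Mmp2, gelatinase A, which degrades denatured collagen and basement membrane collagen (ENSRNOG00000016695, chromosome 19, 14154657 to 14182870), had 11.7, 15.5 and 13.9 FPKM from 295, 473 and 426 counts. Mmp14, the membrane-type enzyme that activates pro-Mmp2 (ENSRNOG00000010947, chromosome 15, 27887727 to 27899864), had 11.3, 9.93 and 13.3 FPKM. Each was above the median coding gene in 3 of 3 libraries, Mmp2 by 1.33 (SE 0.16, adjusted p 0.00749, limma) and Mmp14 by 1.10 (SE 0.13, adjusted p 0.00803) in log2(FPKM + 1). In FPKM, Mmp2 was 5.28 times and Mmp14 4.37 times the receptor median. Even so, 13 of 1314 receptor genes and 1252 nuclear protein-coding genes had a higher mean FPKM than Mmp2, which stood at percentile 94.5 of the coding genes. Mmp14 minus Mmp2 was -0.23 ± 0.31 in log2(FPKM + 1), negative in 3 of 3 libraries (exact permutation test, p = 0.25, the smallest possible, adjusted 0.375). Replicate 2 had -0.60 and the others -0.04 and -0.06, and without replicate 2 the mean was -0.051. Mmp2 minus Timp2 was 0.76 ± 0.30, positive in 3 of 3 (exact permutation test, p = 0.25, adjusted 0.375). It turned to -1.19 with CPM.

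Next in level came Mmp9, Mmp21 and Mmp24, none of them in the stromal list. Mmp9, gelatinase B, a neutrophil and macrophage enzyme, had 8.56, 8.39 and 7.10 FPKM. It lay 0.63 (SE 0.13) above the coding median in log2(FPKM + 1), adjusted p 0.0204 by limma. Mmp21, known for its role in left-right body asymmetry, had 5.69, 7.47 and 9.95 FPKM and was not called (adjusted p 0.0727, limma). Mmp24, a membrane-type enzyme of the nervous system, had 6.59, 7.15 and 7.53 FPKM and was called (0.47, SE 0.13, adjusted p 0.0429). The 6 membrane-type genes had a median of 5.01 ± 0.622 FPKM and the other 17 Mmp genes 4.65 ± 0.604. Within libraries the former was higher by 0.10, 0.15 and 0.01 in log2(FPKM + 1), a mean of 0.09 ± 0.07, and by 1.01 in log2(CPM + 1). The Mmp median as a whole, 4.80 ± 0.699, was -0.01 ± 0.08 from the coding median in log2(FPKM + 1), that is within its spread.

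The genome holds 10 of the measured Mmp genes side by side on chromosome 8, within 358 kb (mRatBN7.2, 4497960 to 4855902). This cluster holds collagenases (Mmp13, Mmp8, Mmp1 and Mmp1b), stromelysins (Mmp3 and Mmp10), macrophage elastase (Mmp12), matrilysin (Mmp7), the enamel protease gene Mmp20 and Mmp27. Many of these are known as genes induced by cytokines through the transcription factor AP-1. Its site was searched here as TGANTCA, with any base at N, a pattern that is the same on both strands. In the 100 bases before the RefSeq start (GRCr8 build), 7 of the 10 cluster genes held both TGANTCA and the TATA box letters TATAAA. The match of Mmp20 was TGAATCA, with A at N, where the other matches had C or G. The TATA box letters were searched on the strand of the gene, the motifs share no bases, and both occurred in 0.134% of 33469 promoters in the same window. TGANTCA alone occurred in 2.47% and TATAAA in 3.86%. Of the 13 Mmp genes outside the cluster, 7 had a promoter entry, and 0 of these held TGANTCA there. Mmp2 and Mmp14, the highest Mmp genes, had no entry and could not be searched. Those 100 bases are given 5′ to 3′ for 6 genes, with TGANTCA and TATAAA in capitals. The 4 genes called below the coding median held the pair, and Mmp3 and Mmp8 are shown for comparison.
Mmp13, chr8:12782729-12782828, plus strand: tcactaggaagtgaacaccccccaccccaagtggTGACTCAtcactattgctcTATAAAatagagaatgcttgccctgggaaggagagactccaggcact
Mmp1, chr8:12943353-12943452, plus strand: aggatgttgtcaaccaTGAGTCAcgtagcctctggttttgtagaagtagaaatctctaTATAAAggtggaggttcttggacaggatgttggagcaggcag
Mmp10, chr8:12974607-12974706, plus strand: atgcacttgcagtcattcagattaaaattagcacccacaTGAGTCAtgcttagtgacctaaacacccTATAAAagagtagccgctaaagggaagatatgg
Mmp20, chr8:13074179-13074278, plus strand: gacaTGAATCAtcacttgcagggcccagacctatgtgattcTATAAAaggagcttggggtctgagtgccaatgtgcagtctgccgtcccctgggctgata
Mmp3, chr8:12925181-12925280, plus strand: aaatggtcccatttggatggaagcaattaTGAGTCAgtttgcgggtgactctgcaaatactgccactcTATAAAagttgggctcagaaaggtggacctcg
Mmp8, chr8:13008790-13008889, plus strand: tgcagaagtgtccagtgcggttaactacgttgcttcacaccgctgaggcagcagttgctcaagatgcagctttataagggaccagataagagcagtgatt

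The cluster had a lower median, 3.39 ± 1.01 FPKM, than the 13 Mmp genes outside it, 5.46 ± 0.435. By limma, 4 of 10 cluster genes and 0 of 13 others were called below the coding median, beside 19.6% of nuclear protein-coding genes. Called above it were 0 of 10 and 4 of 13, beside 21.3%. By level alone, 6 of 10 cluster genes and 1 of 13 others were under the coding median in every library, and 0 and 6 were over it. Mmp10, stromelysin 2, was the lowest Mmp gene, with 2.98, 1.41 and 1.63 FPKM and -0.99 (SE 0.20) from the coding median in log2(FPKM + 1) (adjusted p 0.0180, limma). Mmp13, collagenase 3, had 2.48, 2.42 and 2.09 FPKM, a difference of -0.81 (SE 0.16, adjusted p 0.0175). Mmp1, with 2.56, 3.04 and 1.78 FPKM, lay at -0.77 (adjusted p 0.0304, limma). Mmp20, with 3.41, 2.38 and 1.85 FPKM, lay at -0.74 (adjusted p 0.0287). These 4 genes were in the range of the receptor median. Mmp3, stromelysin 1, had 5.28, 4.23 and 5.56 FPKM, close to the coding median and not called (adjusted p 0.817). Mmp12 had 4.43, 2.02 and 2.53 FPKM and overlaps Mmp1b on the opposite strand, which had 4.37, 3.73 and 4.61. Mmp8 had 7.25, 4.48 and 4.74 FPKM, Mmp27 4.79, 3.75 and 5.15, and Mmp7 5.67, 6.39 and 2.23. Replicate 3 of Mmp7 was thus far under the other two libraries. The 7 genes with both motifs had a median of 2.64 ± 0.685 FPKM, and the 3 without TGANTCA 4.43 ± 0.586. These groups overlapped: Mmp3 (5.02) and Mmp7 (4.76), with both motifs, had higher means than Mmp27 (4.57) and Mmp1b (4.24), without TGANTCA. Mmp13, Mmp12, Mmp1, Mmp10 and Mmp20, with both motifs, had lower means than all 3. A match describes letters only. Counts per gene and library ran from 24 to 118, and the difference was not tested.

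**Figure D3:**
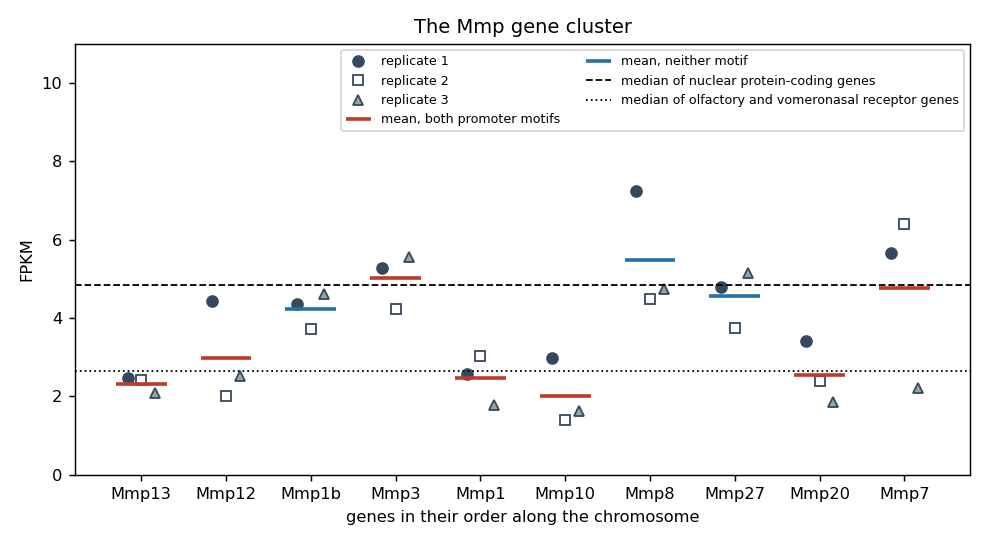
FPKM of the 10 cluster Mmp genes in each library, in their order along the chromosome (circle, square and triangle for replicates 1, 2 and 3; horizontal bar, mean, red for genes with both promoter motifs and blue for neither). The bars of Mmp13, Mmp1, Mmp10 and Mmp20 lie under the dotted receptor median of 2.65 FPKM, and those of Mmp3 and Mmp8 over the dashed coding median of 4.83.

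The Adamts family had a median of 5.03 ± 0.266 FPKM, 0.05 ± 0.05 from the coding median in log2(FPKM + 1). Adamts16, a secreted protease, was the highest, with 7.41, 6.85 and 9.56 FPKM and a difference of 0.61 (SE 0.14, adjusted p 0.0277, limma). Adamts10, linked to fibrillin microfibrils, had 6.89, 7.65 and 7.09 FPKM and was called as well (0.49, SE 0.13, adjusted p 0.0384). Adamts7, which cuts cartilage oligomeric matrix protein, had 6.70 ± 0.421 FPKM, Adamts4, aggrecanase 1, 6.46 ± 0.975 and Adamts18 6.46 ± 2.22, and none of the 3 was called. Called below were Adamts19 (-0.64, adjusted p 0.0289, limma), whose difference turned to 0.0327 with CPM, and Adamts5, aggrecanase 2, the lowest of the family. Adamts5 had 2.05, 2.29 and 2.37 FPKM, -0.85 (SE 0.16, adjusted p 0.0171) from the coding median. Its neighbour on chromosome 11, Adamts1, which cuts versican, had 4.98, 4.85 and 5.93 FPKM. Every library of Adamts1 was above every library of Adamts5, by 0.95 ± 0.11 in log2(FPKM + 1) (exact permutation test, p = 0.25, the smallest possible, adjusted 0.375).

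The Adam family was the lowest, with a median of 3.54 ± 0.554 FPKM, -0.37 ± 0.11 from the coding median in log2(FPKM + 1) and below it in 3 of 3 libraries. Relative to the Mmp family the median was lower by 0.36 ± 0.12 in log2(FPKM + 1), in 3 of 3 libraries. With CPM the 2 family medians differed by 0.00437. Its highest members, Adam19 and Adam12, are the meltrins, membrane proteases of muscle and connective tissue. Adam19 had 7.92, 6.14 and 9.15 FPKM, 0.57 (SE 0.14) above the coding median in log2(FPKM + 1) (adjusted p 0.0311, limma). Adam12 had 8.43, 6.20 and 8.12 FPKM, 0.55 (SE 0.13) above it (adjusted p 0.0267). Adam33, a gene of smooth muscle and fibroblasts, had 5.17, 5.92 and 7.35 FPKM and was not called (adjusted p 0.199, limma). Adam17, the tumour necrosis factor converting enzyme, had 4.14, 4.61 and 6.37 FPKM. Adam10, the sheddase of Notch and many other surface proteins, had 1.74, 1.99 and 2.15 FPKM, -0.98 (SE 0.17, adjusted p 0.0145, limma). The libraries of these 2 sheddases did not overlap: Adam10 minus Adam17 was -1.01 ± 0.19 in log2(FPKM + 1), negative in 3 of 3 (exact permutation test, p = 0.25, the smallest possible, adjusted 0.375).

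Stromal members were set against testis-type Adam genes, each list named from their known sites of expression and with earlier results of these data known. The 22 stromal members of all 4 families had a median of 5.22, 5.26 and 5.74 FPKM in replicates 1, 2 and 3, and the 14 testis-type Adam genes 3.45, 2.69 and 3.12. The difference was 0.65 ± 0.15 in log2(FPKM + 1) and positive in 3 of 3 libraries. Within the Adam family alone, the 7 stromal genes exceeded the testis-type genes by 0.67 ± 0.31. The 5 Adam genes in neither list had a median of 3.42 ± 0.418 FPKM, near the 3.09 ± 0.382 of the testis-type genes. Of these 5, 0 were called above the coding median and 2 below (limma). Against the coding median, 6 of 22 stromal members were called above and 3 below, and 1 of 14 testis-type genes was called above and 7 below (limma, beside 21.3% of coding genes above and 19.6% below). In the fits that left out 1 library, the stromal count above was 2 to 3 and the testis-type count below 2 to 3. Against the coding median, stromal members were at 0.14 ± 0.12 in log2(FPKM + 1), with 0.0016 in replicate 1, and testis-type genes at -0.52 ± 0.04. Against the receptor median, stromal members were at 0.81 ± 0.14 and testis-type genes at 0.16 ± 0.02. The 2 lists overlapped widely: 16 of 22 stromal members had mean levels within the range of the testis-type means, from 1.72 FPKM for Adam32 to 7.51 for Adam30.

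Testis-type genes differed widely among themselves. Adam30 had 8.70, 5.49 and 8.36 FPKM and lay above the coding median by 0.52 (SE 0.15, adjusted p 0.0429, limma), at the level of Adam12. Adam1b, which forms the fertilin complex of sperm with Adam2 in rodents, had 6.12, 5.03 and 7.11 FPKM, and Adam2 had 5.79, 4.32 and 5.37. The lowest member of all 72 was Adam32, with 1.83, 1.28 and 2.05 FPKM and -1.11 (SE 0.18, adjusted p 0.0125, limma). Adam26a had 0.865, 2.67 and 1.69 FPKM. Markers of male germ cells, measured beside them, did not move as one: Tnp1, with 18.7, 20.5 and 23.8 FPKM, and Acr, with 14.6, 9.05 and 9.30, lay above the coding median, while Ddx4 at 1.22 ± 0.518 and Dazl at 0.688 ± 0.153 lay below it. Over the 5 measured markers the median in a library ran from 3.18 to 7.68 FPKM. The part of such cells in the levels of Adam genes was not tested.

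On chromosome 16, 1 stromal and 4 testis-type Adam genes follow each other on the same strand (mRatBN7.2, 67022655 to 67425248), with no other protein-coding gene of the table within the span. Adam9, a widely expressed sheddase, had 3.92, 5.73 and 3.80 FPKM. Next to it, Adam32 and Adam5 were among the 3 lowest members, with means of 1.72 ± 0.398 and 1.75 ± 0.312 FPKM. Adam3a, needed for sperm migration in mouse, had 3.14 ± 0.780 FPKM, and Adam18 at the far end 4.01 ± 0.709. Adam9 and Adam18 were not called against the coding median (adjusted p 0.663 and 0.230, limma), and their libraries overlapped.

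**Figure D4:**
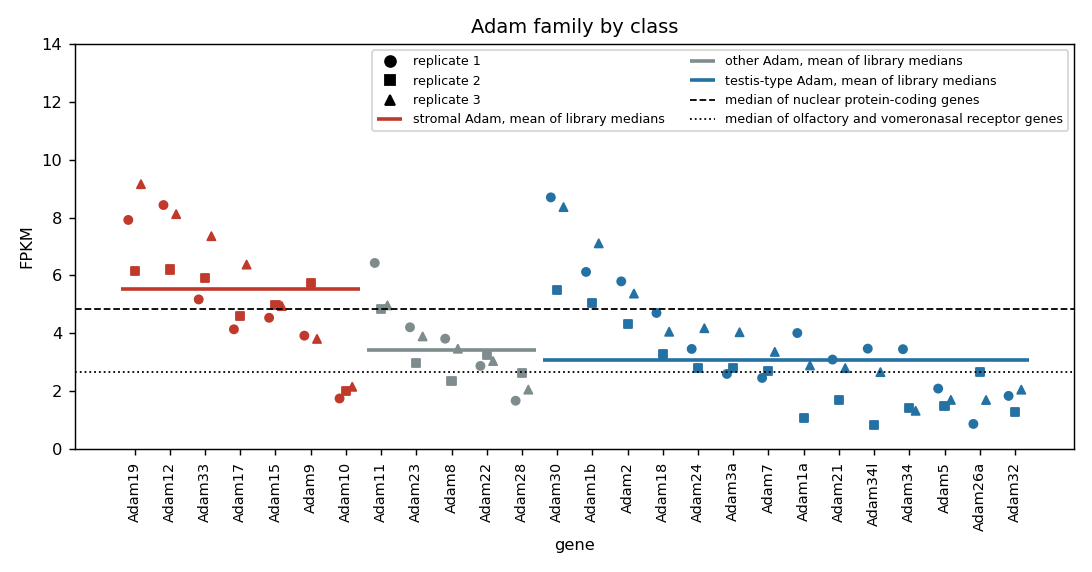
FPKM of the 26 Adam genes in each library, grouped as stromal (red), other (grey) and testis-type (blue), with thick lines at the mean of the library medians. The lines stand at 5.55, 3.42 and 3.09 FPKM, and Adam30 among the testis-type genes reaches the level of Adam19 and Adam12.

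Genes that act on these enzymes were described from a list of 41 activators, other inhibitors, regulators, relatives and substrates. Limma's treat test called 0 of 41 over 2 above the receptor median, beside 1.79% of all genes and 1.57% of nuclear protein-coding genes. For 41 genes, 0 is near those shares. Against the coding median, 6 of 41 were called above and 2 below, beside 21.3% and 19.6% of nuclear protein-coding genes, with a list median of 5.43 ± 0.535 FPKM. Plaur, the urokinase receptor, had 14.4, 12.7 and 11.6 FPKM, 1.25 above the coding median in log2(FPKM + 1) (SE 0.12, adjusted p 0.0046, limma). Its mean of 12.9 ± 1.40 FPKM lay between those of Mmp2 and Mmp14. Bsg, an inducer of Mmp expression, had 6.14, 11.5 and 9.63 FPKM, lower in replicate 1 than in the others, and was called (adjusted p 0.0467, limma). So were Tll2, a tolloid-like protease (7.89 ± 0.940 FPKM), Adamtsl2, an Adamts-like matrix protein (7.26 ± 1.68), and Plau, urokinase (6.96 ± 0.286). Tll1 and Adamtsl5 were called below. Furin, which cuts pro-Mmp14, had 5.12 ± 1.10 FPKM and Reck, a membrane-anchored Mmp inhibitor, 5.74 ± 0.971, neither of them called.

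Counts of the members followed the length of their gene models. Across the 72 genes, Spearman's rho between mean count and the length implied by count over FPKM was 0.737, and across 21842 nuclear protein-coding genes with reads in every library it was 0.739. This is a description across genes, which share libraries and depth. Between mean FPKM and the same length rho was 0.131 for the members. Timp2, with the longest model of the 4 inhibitors, had the most counts of any member (869 to 935) at an FPKM below that of Timp3. The order of the members was similar between libraries, with rho of 0.802, 0.830 and 0.826 for the pairs of replicates, against 0.782, 0.786 and 0.801 across nuclear protein-coding genes.

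**Figure D5:**
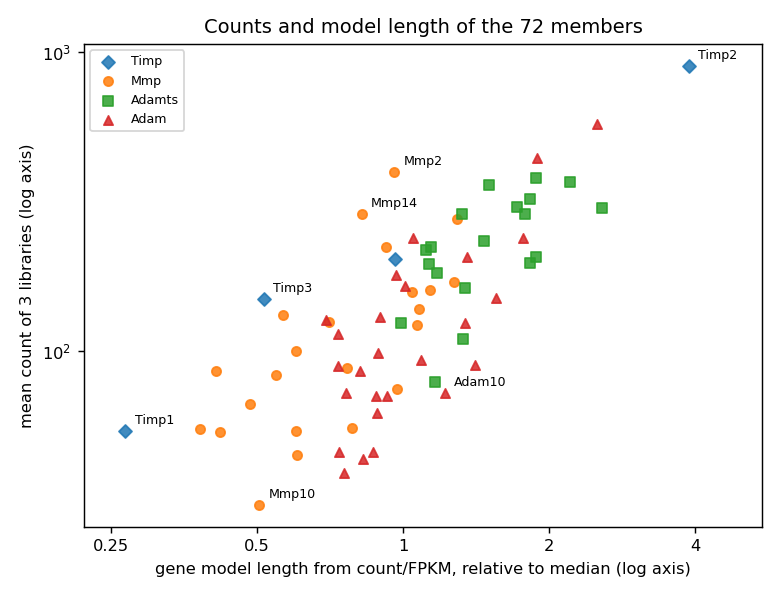
Mean count over the 3 libraries against the gene model length implied by count over FPKM, relative to the median member, for the 72 genes by family, on log axes. Counts rise with length (rho 0.737 over the members), and counts per length are highest for Mmp2 and lowest for Adam32.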

How the data were processed

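Vesicle RNA was sequenced paired-end after total RNA libraries were made with a strand-marking low-input kit and ribosomal cDNA was cut, per the labels' protocols. Per the submitters' processing notes, reads were handled with cutadapt 1.9 and FastQC on build mRatBN7.2. No source used here gives the aligner, the counter or its strand setting. The deposited counts are whole numbers per gene that the authors did not normalize. The deposited FPKM were scaled by the authors to gene model length and library total.

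All 29684 genes were fitted with limma 3.58.1 (R 4.3.3) on log2(FPKM + 1), relative to the library's median receptor gene (1314 protein-coding genes named Olr, Or or Vom) or coding gene, with a prior variance that follows the level. This scale understates changes of low genes. As there was 1 group, counts (edgeR 4.0.16, with an offset for length and reference level, and the quasi-likelihood F computed from the fit) were an alternative. Simulated data were used only for fits against the receptor median at the highest threshold, and the outcome is not given here. No call against the coding median or at a lower threshold rests on that check. Adjusted p under 0.05 was a call. Alternatives were the prior variance, a pseudocount of 0.5, a mean FPKM of at least 1, CPM, rescaling, another reference and each library left out. List medians have no test.

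Members and lists were chosen with earlier results of these data known. Named were all Timp genes, the 5 highest per family, the 3 highest testis-type genes, the lowest per family, the genes of 6 pairs, the cluster Mmp genes and called or top list genes; others named were chosen after their values were seen. Of 72 members, 49 had a RefSeq promoter (GRCr8) by symbol. Cell-type markers without a row were not analysed here. A called gene of the list of related genes is not reported here.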

Additional observations from a re-analysis of the deposited data

How the results depend on the processing

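The count of 0 members called more than 2 above the receptor median was 0 in every alternative run except CPM (14), which do not divide by length, and the lower thresholds added later (45 for any difference, 2 for a difference over 1). For all genes, 531 were called, against 1188 with edgeR, 297 with the coding median as reference, 3670 with CPM, 15703 for any difference, 2631 for a difference over 1, and 0 to 768 with 1 library left out. More than 1 above the receptor median, 12 members were called with edgeR, 36 with CPM and 0 to 2 with 1 library left out. These edgeR counts rest on folds in FPKM without the added 1, at lower levels than limma's thresholds. Against the coding median, leaving out 1 library gave 2 to 3 members above, 2 to 4 below, 2 to 3 stromal members above and 2 to 3 testis-type genes below, and with CPM 34 members and 13 stromal members lay above. With CPM, the stromal minus testis-type difference was 1.13 (stromal Adam genes alone 1.21), Mmp minus Adam 0.00437, Timp2 minus Timp3 2.56, Mmp2 minus Timp2 -1.19, Adam22 0.20 and Adamts19 0.0327 against the coding median. Timp2 minus Timp3, Mmp2 minus Timp2, Adam22 and Adamts19 changed sign, which the division by length sets. With CPM the Adamts median passed the Timp median (1.11 and 0.67 above the coding median). Timp1 minus Timp2 ran from -0.37 to 0.0372 with 1 library left out. Of the 27 members called against the coding median, 22 were called in every alternative with all libraries other than CPM, and 18 in no fit with 2 libraries. No paired analysis was possible because there was 1 group, so replicate numbers pair no samples across groups. The gene pairs were compared within libraries. Depth limits the lowest genes: Mmp10 had 24 to 41 counts.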
